A study of Mus musculus with 4 samples.

Results

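Calcium cycling genes encode the proteins that move calcium into, within and out of heart muscle cells. 10 such genes were followed here by their symbol, of 32285 genes in the count tables: Atp2a2, Pln, Sln, Ryr2, Casq1, Casq2, Slc8a1, Cacna1c, Smpx and Hrc. Each was found and each passed the filter on low counts in every comparison below. Single-cell RNA sequencing had been done on dissociated mouse hearts at embryonic stage E10.5, with 2 libraries from wild-type embryos (Wt 1, Wt 2) and 2 from homozygous Cyp51 I383V embryos (Ho 1, Ho 2), all on the C57BL/6J strain. Cyp51 encodes lanosterol 14α-demethylase of the cholesterol synthesis pathway, and its I383V allele is a point mutation knocked in with CRISPR/Cas9. The labels give CRISPR/Cas9 as the treatment of all 4 samples, those of wild-type genotype included. The number of embryos and litters behind a library is not given in the sources used here, so p-values measure the spread between these 4 libraries, which may be technical.

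In a heart muscle cell, calcium enters through L-type channels at each beat and opens ryanodine receptors, which release more calcium from the sarcoplasmic reticulum, the internal store of muscle. The pump SERCA returns it to the store under the control of small inhibitory membrane peptides, and an exchanger in the surface membrane carries the rest out. Phospholamban and sarcolipin are known as the SERCA regulators of ventricular and atrial muscle respectively, and spontaneous calcium cycling in the inflow of the early heart is known to accompany its pacemaker activity.

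Cardiomyocytes were taken as cells with at least 10 UMIs (unique molecular identifiers, 1 for each captured mRNA molecule) of Tnnt2, cardiac troponin T, per 10000 UMIs of the cell. They numbered 10050 of 29168 cells. Within them, 3560 ventricular cells had at least 10 UMIs of Myl2 per 10000 and none of Stard10 or Shox2. Below that Myl2 limit, 1883 atrial cells had a UMI of Stard10 and none of Shox2, and 1778 sinus venosus cells had a UMI of Shox2. A further 1457 mixed cells passed the Myl2 limit with a UMI of Stard10 or Shox2, and 1372 ungated cells met none of these rules. The names come from these 4 genes alone, so the levels of Tnnt2, Myl2, Stard10 and Shox2 are no finding here. Endothelial cells, 6746 in all, lacked the Tnnt2 level and had at least 2 UMIs of endothelial genes, and served as the background for muscle transcripts. UMIs were summed per library and class, and a level is given as CPM, the UMIs of a gene per 1000000 UMIs of the summed cells. The assay counts 1 end tag per molecule, so transcript length does not enter this scale.

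The gates were compared with marker genes they had not used. Of 7 ventricular markers, 5 were at least 2 times as high in ventricular cells as in either of the other chambers, among them Irx4 with 51.2 CPM against at most 1.06 CPM. All 7 sinus venosus markers were raised in the same way, among them Hcn4, the pacemaker channel, at 79.1 CPM against 14.6 CPM. The atrial list separated less well. Of its 8 genes, 7 were higher in atrial than in ventricular cells, 4 of them at least 2 times, but Kcna5 alone was at least 2 times as high as in both other chambers. Nr2f1 was at 86.2 CPM in atrial and 95.9 CPM in sinus venosus cells. Mixed cells held ventricular markers at a summed 10341 CPM, beside 10197 CPM in ventricular cells.

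The libraries held 109893733 (Wt 1), 117034633 (Wt 2), 127018819 (Ho 1) and 107377100 (Ho 2) UMIs, and 99 barcodes occurred in more than 1 library. Ventricular cells of Wt 1 were the shallowest, with a median of 8549 UMIs, against 17269.5 to 19482.5 in the other libraries. Cardiomyocytes made up 18.8%, 36.2%, 48.7% and 38.9% of the cells of Wt 1, Wt 2, Ho 1 and Ho 2. Sinus venosus cells made up 3.75%, 4.91%, 7.12% and 9.73% in the same order. The part of this makeup in the genotype estimates was not tested. Ho 1 stood apart in sex, with 28888 UMIs of Xist and 0 of Y chromosome genes, where the other libraries had 2 to 5 UMIs of Xist and 8797 to 9908 of Y chromosome genes. Genotype estimates of the members whose Ho and Wt levels did not overlap are therefore also given without Ho 1. Blood markers, led by the haemoglobin gene Hba-x, also differed, summing to 553 CPM in the sinus venosus cells of Ho 1 and to at most 6.79 CPM in those of the other libraries. In ventricular cells the corresponding sums were 85.5 and at most 8.86 CPM.

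RefSeq promoter windows on GRCm38.p6 matched 8 of the 10 genes, all but Atp2a2 and Sln. The 250 bases before the RefSeq start are shown for Pln and Smpx, which mark the ventricular and the working muscle in the values below, and for Casq1 and Casq2, a pair of isoforms with very different levels. They lie at chr10:53337436-53337685 on the plus strand (Pln), chrX:157698723-157698972 on the plus strand (Smpx), chr1:172219896-172220145 on the minus strand (Casq1) and chr3:102086165-102086414 on the plus strand (Casq2). GENCODE M21, the source of the gene positions below, places the starts of Pln and Smpx inside these windows, at 53337667 and 157698910. Capitals mark matches, on either strand, to motifs of factors active in heart muscle, which are spelled out after the sequences.
Pln: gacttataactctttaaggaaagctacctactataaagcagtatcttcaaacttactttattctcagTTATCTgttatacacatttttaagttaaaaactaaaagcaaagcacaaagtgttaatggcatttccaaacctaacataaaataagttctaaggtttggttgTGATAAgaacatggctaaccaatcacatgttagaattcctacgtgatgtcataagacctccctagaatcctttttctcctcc
Smpx: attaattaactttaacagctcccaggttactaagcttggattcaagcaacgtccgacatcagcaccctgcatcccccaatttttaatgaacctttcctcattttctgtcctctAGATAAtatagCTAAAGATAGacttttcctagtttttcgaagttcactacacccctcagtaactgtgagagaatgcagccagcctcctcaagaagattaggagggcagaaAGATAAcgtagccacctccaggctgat
Casq1: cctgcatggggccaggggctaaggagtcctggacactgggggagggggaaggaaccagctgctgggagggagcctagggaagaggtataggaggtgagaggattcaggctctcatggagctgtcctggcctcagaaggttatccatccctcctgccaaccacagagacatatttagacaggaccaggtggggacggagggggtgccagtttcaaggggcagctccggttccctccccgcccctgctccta
Casq2: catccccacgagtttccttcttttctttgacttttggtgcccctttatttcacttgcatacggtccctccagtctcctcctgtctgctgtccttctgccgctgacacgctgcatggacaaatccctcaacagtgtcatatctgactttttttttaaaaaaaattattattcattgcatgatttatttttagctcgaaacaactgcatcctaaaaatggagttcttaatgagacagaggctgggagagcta

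The letters searched were AGATAA and TGATAA for GATA factors, TNAAGTG for NKX2-5, AGGTGT for T-box factors, CTA and TAG with any 4 bases between them for MEF2, and AGGTCA for nuclear receptors. The Pln window held AGATAA 183 bases and TGATAA 82 bases before the start. The Smpx window held 2 copies of AGATAA, the first 137 bases before the start, and the MEF2 letters once, at 126 bases. Neither calsequestrin window held any of these letters. Of 32536 windows of the same length, 9.97% held AGATAA, 7.79% TGATAA, 10.0% TNAAGTG, 11.9% AGGTGT, 3.22% those of MEF2 and 14.0% AGGTCA. Among the other windows, that of Slc8a1 held AGATAA and TGATAA once each and that of Ryr2 held AGGTCA once, while those of Hrc and Cacna1c held none. A match describes letters and is not a binding site.

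The first comparison asked how the 10 genes differ between atrial and ventricular cells of the same libraries. Sln, Casq1, Atp2a2 and Ryr2 were higher in atrial cells, Pln, Casq2, Hrc, Smpx and Cacna1c were higher in ventricular cells, and Slc8a1 did not pass the test. Pln and Sln, which encode inhibitors of the same pump, lay at opposite ends. edgeR's quasi-likelihood test with library as a block called 4593 of 12182 genes at an adjusted p-value under 0.05, or 37.7%, with 18.6% higher in atrial cells and 19.1% lower. The 9 of 10 called here, 4 higher and 5 lower, thus stand in a comparison that called a large part of all genes.

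Pln, which encodes phospholamban, the peptide that holds back the SERCA pump until it is phosphorylated, lies on chromosome 10 (53337667 to 53345987, GRCm38). Its level in ventricular cells was 349, 413, 382 and 399.8 CPM in Wt 1, Wt 2, Ho 1 and Ho 2, from 2109 to 8319 UMIs. In atrial cells it was 26.5, 34.3, 25.2 and 32.1 CPM in the same order. Every ventricular value was more than 10 times as high as every atrial value. The fitted log2 fold change was -3.76 ± 0.0564 (SE; edgeR adjusted p-value 3.18e-33), a level 13.6-fold lower in atrial cells. In cells gated first and then thinned to 5000 UMIs, as for all shares given here, 73.6% ± 4.61 (SD, n = 4 libraries) of ventricular and 11.2% ± 1.30 of atrial cells had a UMI of Pln, against 1.204% ± 0.706 of endothelial cells. Without thinning these shares were 81.9%, 24.7% and 2.79%. Ungated cells held Pln at 149 to 238 CPM, between the chambers, and mixed cells at 484 to 523 CPM, above every ventricular value.

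Sln encodes sarcolipin, the shorter relative of phospholamban (chromosome 9, 53850164 to 53854560). In ventricular cells it was near the limit of detection, at 3.64, 0.994, 0.551 and 0.161 CPM in Wt 1, Wt 2, Ho 1 and Ho 2, from 22, 16, 12 and 2 UMIs. The 22 UMIs of Wt 1 lay in 4 of 571 cells. Atrial cells had 5.03, 6.84, 4.16 and 7.21 CPM, from 25, 72, 51 and 64 UMIs. The ratio of atrial to ventricular level ran from 1.38 in Wt 1 to 44.8 in Ho 2, and all 4 libraries were higher in atrial cells. The fitted log2 fold change was 2.53 ± 0.306 (edgeR adjusted p-value 2.48e-08). It was 3.23 ± 0.281 without Wt 1, 2.07 ± 0.293 without Ho 2 and 4.195 ± 0.285 with a Myl2 limit of 20 per 10000 (edgeR adjusted p-values 5.96e-11, 2.78e-07 and 6.91e-14). After thinning, 2.06% ± 0.427 of atrial cells had a UMI of Sln (6.28% without thinning), against 0.327% ± 0.254 of ventricular cells and 0.0530% ± 0.0377 of endothelial cells. Sarcolipin transcripts were thus found in few atrial cells at this stage.

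Atp2a2, the gene of the cardiac pump SERCA2 (chromosome 5, 122453513 to 122502225), had the highest atrial and sinus venosus level of the 10. It was at 475, 481, 516 and 614 CPM in ventricular and at 1019, 1032, 944 and 1188 CPM in atrial cells of Wt 1, Wt 2, Ho 1 and Ho 2. The chambers did not overlap, and the log2 fold change was 0.95 ± 0.0435 (edgeR adjusted p-value 5.01e-19), or 1.94-fold. Cells outside the muscle gate also held it, with 70.6 to 78.5 CPM in endothelial cells, where Ryr2 had at most 4.11 CPM. Atp2a1, the skeletal muscle pump, was rare but more uneven. It was at 0.564 to 1.24 CPM in ventricular and 9.29 to 16.7 CPM in atrial cells (log2 fold change 3.76 ± 0.191, edgeR adjusted p-value 9.54e-18). It made up 1.30% ± 0.237 (SD, n = 4 libraries) of the UMIs of both pump genes in atrial and 0.174% ± 0.0649 in ventricular cells.

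**Figure D1:**
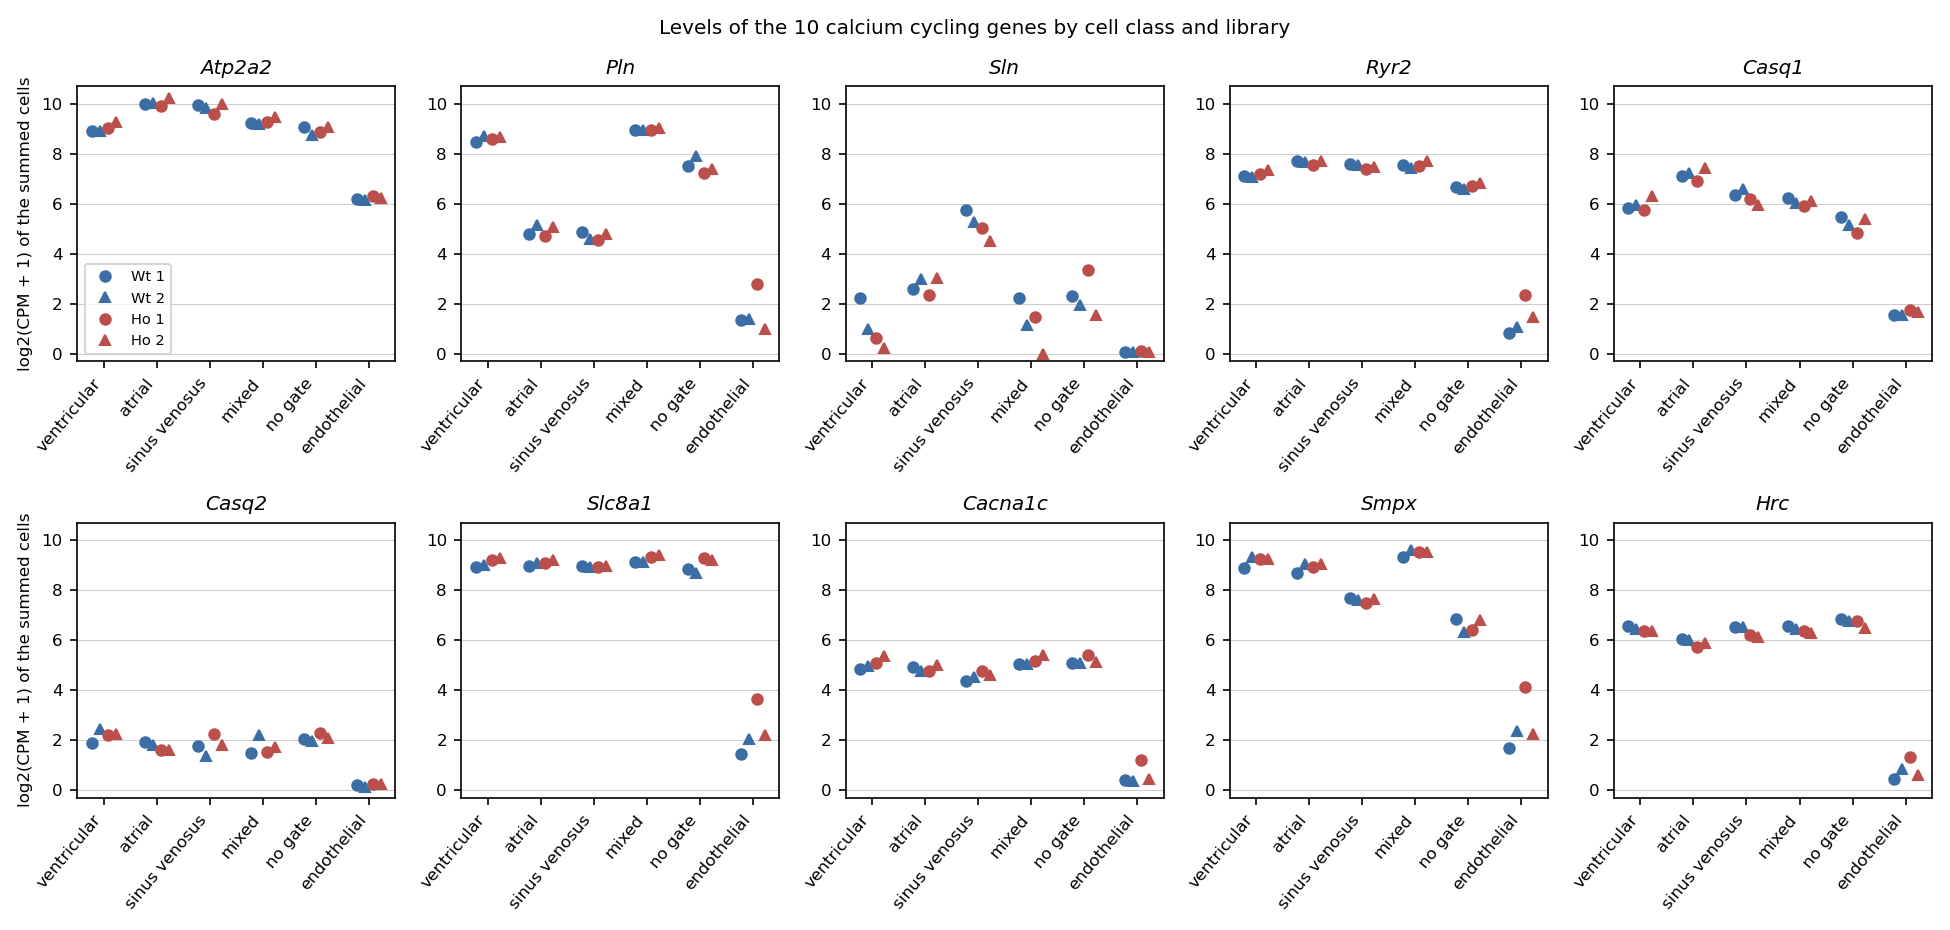
Level of each of the 10 genes, as log2(CPM + 1) of the summed cells, in 6 cell classes; each point is 1 library (circles replicate 1, triangles replicate 2, blue Wt, red Ho). Pln is high in ventricular, mixed and ungated cells and low in atrial and sinus venosus cells, Sln peaks in sinus venosus cells at 21.6 to 52.4 CPM, and Casq2 stays below 5 CPM in every class.

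Among the genes of calcium release and storage, both calsequestrins were measured. Casq2, which encodes the cardiac calsequestrin that buffers calcium in the store (chromosome 3, 102086415 to 102146514), was at 2.65, 4.47, 3.63 and 3.79 CPM in ventricular cells of Wt 1, Wt 2, Ho 1 and Ho 2, from 16 to 79 UMIs. Casq1, known as the skeletal muscle form (chromosome 1, 172209894 to 172219868), was at 55.0, 60.6, 53.1 and 77.1 CPM in the same sums. Casq1 made up 94.4% ± 1.17 (SD, n = 4 libraries) of the UMIs of both genes in ventricular, 98.4% ± 0.350 in atrial and 96.6% ± 1.45 in sinus venosus cells. It was the larger in every library of every muscle class, with a lowest share of 87.7% in ungated cells of Ho 1. Both were above the endothelial background of 1.91 to 2.40 CPM of Casq1 and 0.0910 to 0.193 CPM of Casq2. Of 5 markers of skeletal muscle cells, 4 were detected in ventricular and in atrial cells, and Myf5 was at 0 in both. The list summed to 888, 849.6, 696 and 917 CPM in ventricular and 552, 606, 565 and 690.4 CPM in atrial cells of Wt 1, Wt 2, Ho 1 and Ho 2. Nearly all of it was Acta1, the skeletal α-actin, which heart muscle is also known to express. The mean of Acta1 was 837.5 of a summed 837.8 CPM in ventricular and 603.1 of 603.5 CPM in atrial cells. The other detected markers of the list were thus near the limit of detection. The part of these genes in the Casq1 levels was not tested.

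The pair also went in opposite directions between chambers. Casq1 was at 136, 149.8, 119 and 171 CPM in atrial cells of Wt 1, Wt 2, Ho 1 and Ho 2, 2.22 to 2.48 times the ventricular level of the same library. Its log2 fold change was 1.18 ± 0.0486 (edgeR adjusted p-value 2.75e-20). Casq2 was lower in atrial cells, at 2.82, 2.47, 2.04 and 2.03 CPM, with a log2 fold change of -0.77 ± 0.198 (edgeR adjusted p-value 0.00202). Wt 1 did not share that direction, and DESeq2 did not call the gene (log2 fold change -0.73 ± 0.334, adjusted p-value 0.108). Casq1 UMIs were found in 44.6% ± 5.16 of atrial and 24.2% ± 2.44 of ventricular cells after thinning, against 1.09% ± 0.210 of endothelial cells. Without thinning these shares were 71.4%, 43.8% and 3.23%.

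**Figure D2:**
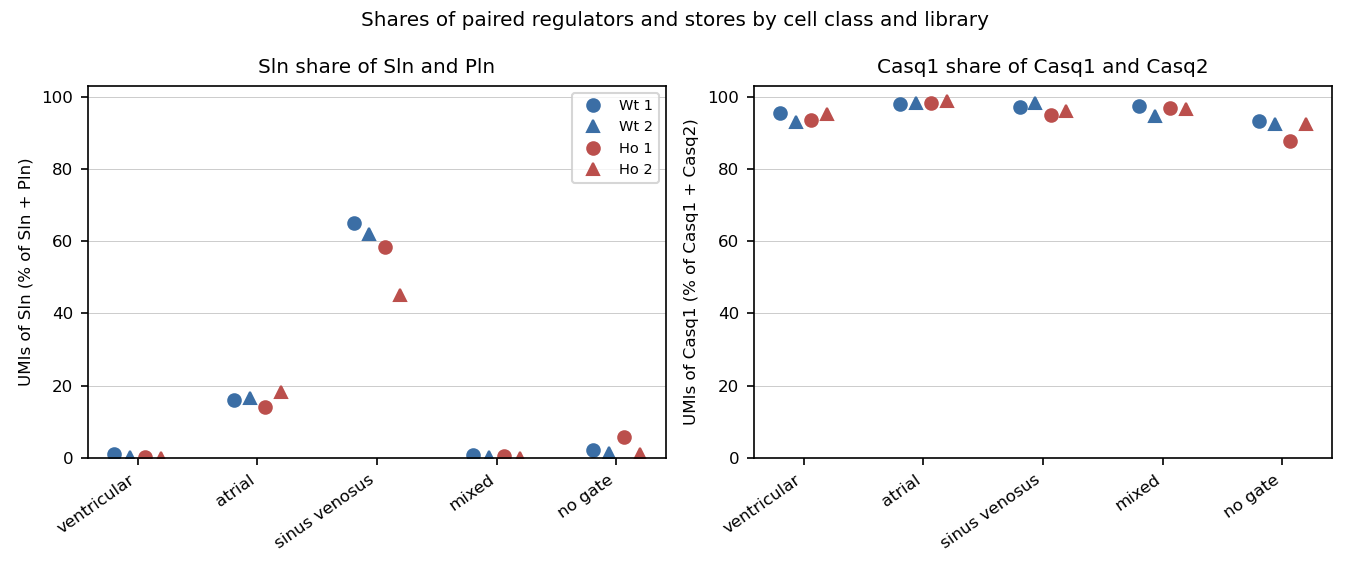
Share of Sln among the UMIs of Sln and Pln (left) and of Casq1 among those of Casq1 and Casq2 (right), in percent, by muscle class; each point is 1 library (circles replicate 1, triangles replicate 2, blue Wt, red Ho). The Sln share is 45.0% to 65.1% in sinus venosus cells and at most 18.3% in the other classes, and the Casq1 share is 87.7% or more in all points.

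Ryr2, the cardiac ryanodine receptor (chromosome 13, 11553102 to 12106945), was moderately higher in atrial cells. Its levels were 138, 133, 143 and 159 CPM in ventricular and 207, 199.7, 186 and 210.1 CPM in atrial cells of Wt 1, Wt 2, Ho 1 and Ho 2, without overlap. The log2 fold change was 0.43 ± 0.0450 (edgeR adjusted p-value 8.61e-10). Hrc encodes a histidine-rich calcium-binding protein of the sarcoplasmic reticulum (chromosome 7, 45335290 to 45338974). It was at 92.9, 85.6, 80.9 and 80.2 CPM in ventricular and 65.8, 62.7, 51.4 and 58.8 CPM in atrial cells, again without overlap. Its log2 fold change was -0.56 ± 0.0524 (edgeR adjusted p-value 7.85e-11).

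Cacna1c and Slc8a1, the members that encode proteins of the surface membrane, had small fitted differences between atrial and ventricular cells. Cacna1c, the pore of the L-type calcium channel (chromosome 6, 118587240 to 119196418), was at 28.0, 30.1, 32.7 and 40.0 CPM in ventricular cells of Wt 1, Wt 2, Ho 1 and Ho 2. In atrial cells it was at 29.8, 25.9, 26.2 and 31.1 CPM, so that the classes overlapped. The fit gave a log2 fold change of -0.28 ± 0.0689 (edgeR adjusted p-value 0.00115), which DESeq2 did not call (adjusted p-value 0.0553). Slc8a1, the sodium-calcium exchanger NCX1 (chromosome 17, 81373105 to 81738377), was at 488, 505, 582 and 622 CPM in ventricular and 504, 536, 540.3 and 592 CPM in atrial cells. Its log2 fold change of -0.06 ± 0.0425 did not pass the test (edgeR adjusted p-value 0.270). In cells thinned to 5000 UMIs it did, at -0.18 ± 0.0520 (adjusted p-value 0.00879). For this and all other fits in thinned cells the gates were applied again after thinning, so that the classes changed with the depth. The sinus venosus cells of Wt 1, for one, then numbered 235 instead of 334.

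Smpx, a small protein of striated muscle that is not itself a calcium carrier (chromosome X, 157698910 to 157752591), was at 476, 641, 603 and 598 CPM in ventricular and 412, 521, 485 and 520.0 CPM in atrial cells of Wt 1, Wt 2, Ho 1 and Ho 2. Each library was lower in atrial cells, though the ranges overlapped. The log2 fold change was -0.31 ± 0.0425 (edgeR adjusted p-value 3.69e-07).

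The second comparison set sinus venosus cells, the Shox2 cells at the inflow of the heart, against atrial cells. Sln and Hrc were higher there, Smpx, Casq1, Cacna1c, Pln, Atp2a2, Ryr2 and Slc8a1 were lower, and Casq2 did not pass the test. edgeR called 4983 of 11906 genes, or 41.9%, with 20.2% higher and 21.7% lower in sinus venosus cells, so the 9 of 10, 2 higher and 7 lower, again stand beside a wide difference. Library totals in place of TMM factors moved the median log2 fold change of all genes to 0.13. The calls then split into 3891 higher and 1504 lower genes instead of 2400 and 2583. Between atrial and ventricular cells the corresponding split was 2818 and 1919 genes instead of 2268 and 2325. No member changed its direction or its call with that scaling in either comparison.

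Sln had its highest level in sinus venosus cells, at 52.4, 37.9, 31.4 and 21.6 CPM in Wt 1, Wt 2, Ho 1 and Ho 2, each from 211 to 242 UMIs. Every value was above all atrial values. The log2 fold change over atrial cells was 2.40 ± 0.168 (edgeR adjusted p-value 5.09e-09), or 5.28-fold. In cells gated again after thinning it was 1.52 ± 0.191 (edgeR adjusted p-value 9.84e-08). Sln UMIs were found in 9.33% ± 2.87 of sinus venosus cells after thinning and in 17.1% without it. Pln in the same cells was at 28.0, 23.2, 22.3 and 26.3 CPM, overlapping the atrial levels. Its log2 fold change of -0.38 ± 0.0906 (edgeR adjusted p-value 0.00257) was not called in thinned cells (-0.03 ± 0.163, adjusted p-value 0.927). With at least 2 UMIs of Stard10 asked of atrial cells it was -0.01 ± 0.115 (adjusted p-value 0.939). Sln made up 57.7% ± 8.86 (SD, n = 4 libraries) of the UMIs of Sln and Pln in sinus venosus cells, 16.3% ± 1.73 in atrial and 0.364% ± 0.453 in ventricular cells.

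The Shox2 cells were split further by Stard10, a choice made after the data had been seen. Stard10 UMIs were found in 65.3% of Shox2 cells in Wt 1, 66.4% in Wt 2, 61.8% in Ho 1 and 62.4% in Ho 2. Casq1 was at 99.2, 119.8, 96.7 and 81.4 CPM in Shox2 cells with Stard10 and at 21.2, 18.8, 11.6 and 13.4 CPM in those without, so that the former were higher in all 4 libraries. Sln was at 56.5, 48.2, 40.5 and 28.3 CPM with Stard10 and at 39.7, 6.51, 10.3 and 6.55 CPM without. Against atrial cells, the log2 fold change of Sln was 2.75 ± 0.158 with Stard10 and 0.92 ± 0.346 without it (edgeR adjusted p-values 1.17e-09 and 0.0375). The libraries did not share the latter direction. Without Stard10, Wt 2 and Ho 2 lay below their atrial levels of 6.84 and 7.21 CPM, and Wt 1 and Ho 1 above theirs of 5.03 and 4.16 CPM. The difference between both kinds of Shox2 cells was not tested.

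Smpx and Casq1 fell most. Smpx was at 207, 192, 177 and 197 CPM in sinus venosus cells of Wt 1, Wt 2, Ho 1 and Ho 2, below every atrial value, with a log2 fold change of -1.45 ± 0.0626 (edgeR adjusted p-value 1.16e-11). Without Ho 1 it was -1.39 ± 0.0691. Casq1 was at 80.0, 94.8, 71.0 and 60.4 CPM, also below every atrial value, with a log2 fold change of -1.06 ± 0.0945 (edgeR adjusted p-value 9.91e-08). In Shox2 cells without Stard10 the values were -3.45 ± 0.122 for Casq1 and -2.63 ± 0.132 for Smpx. Hrc went the other way, at 92.1, 91.5, 73.1 and 69.3 CPM, all above the atrial levels (log2 fold change 0.32 ± 0.0585, edgeR adjusted p-value 0.000298). For Hrc this difference was 0.17 ± 0.102 in thinned cells (adjusted p-value 0.213) and 0.00 ± 0.0917 in Shox2 cells without Stard10 (adjusted p-value 0.994).

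The other members changed less. Atp2a2 was at 985, 895, 768 and 998 CPM in sinus venosus cells (log2 fold change -0.32 ± 0.0434, edgeR adjusted p-value 1.15e-05). Ryr2 was at 192, 183, 165 and 177 CPM (-0.29 ± 0.0424, edgeR adjusted p-value 3.36e-05), and Slc8a1 at 492, 479.7, 489.8 and 497 CPM (-0.27 ± 0.0406, edgeR adjusted p-value 3.79e-05). Without TMM factors, the log2 CPM ratios to atrial cells of the same library were all smaller in size than these fits. They were -0.049, -0.21, -0.30 and -0.25 for Atp2a2 in Wt 1, Wt 2, Ho 1 and Ho 2. For Ryr2 they were -0.10, -0.12, -0.17 and -0.24, and for Slc8a1 -0.036, -0.16, -0.14 and -0.25. Levels of Atp2a2 and Ryr2 overlapped between the classes. Cacna1c was at 19.3, 21.9, 25.8 and 23.1 CPM, with a log2 fold change of -0.42 ± 0.0888 (edgeR adjusted p-value 0.000974), which was not called in thinned cells (-0.16 ± 0.158, edgeR adjusted p-value 0.497). Casq2, at 2.39, 1.62, 3.77 and 2.53 CPM from 9 to 29 UMIs, did not pass (0.10 ± 0.260, adjusted p-value 0.797). Mesenchymal markers, all 7 of them detected, summed to 141, 180.4, 245 and 214 CPM in sinus venosus cells, led by Col1a2, and to 37.3 to 50.1 CPM in atrial cells. All 5 epicardial markers summed to 81.3, 94.6, 82.0 and 127 CPM, led by Tcf21, and to 18.7 to 30.0 CPM. Their part in the differences was not tested.

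**Figure D3:**
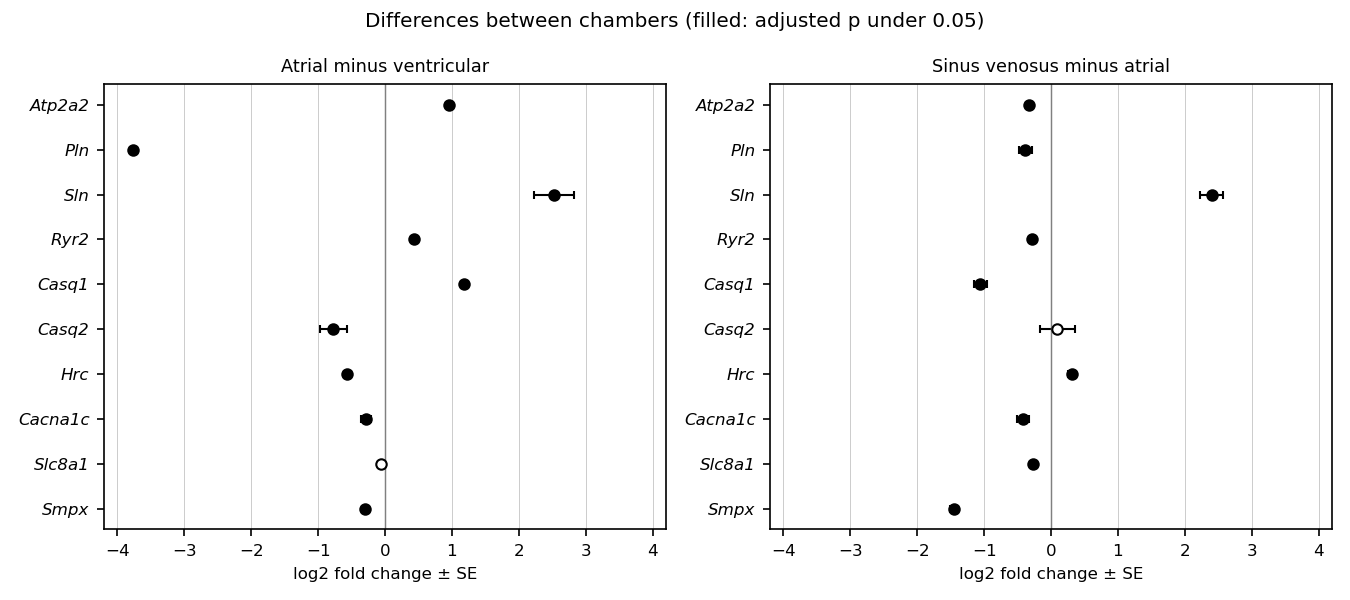
Fitted log2 fold change (point) and its standard error (bar) of the 10 genes between atrial and ventricular cells (left) and between sinus venosus and atrial cells (right), over 4 libraries; filled points have an edgeR adjusted p-value under 0.05. Pln at -3.76 and Sln at 2.53 mark the extremes on the left, Sln at 2.40 and Smpx at -1.45 those on the right.

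Over all 7 classes, the levels set muscle apart from the other cells. For 9 members the lowest library of any muscle class lay above the highest library of the endothelial and other cells. The exception was Sln, which had 0 UMIs in the mixed cells of Ho 2. Slc8a1 was the most even, with mean levels of 489.7 CPM in sinus venosus to 609 CPM in mixed cells, and all neighbours in the order of its 5 muscle classes overlapped. Ungated cells had the lowest mean of any muscle class for Smpx (96.5 CPM), Casq1 (36.4 CPM) and Ryr2 (102 CPM), in each case below every library of the next class. They had the highest mean for Hrc (104 CPM) and Cacna1c (35.5 CPM), where they overlapped with the class after them. The mean sums of mesenchymal, endothelial, epithelial, epicardial, sinus venosus and blood markers were higher in ungated than in ventricular and atrial cells. All 7 mesenchymal markers, led by Col1a2, summed to 266, 370.4, 189.7 and 226 CPM in ungated cells of Wt 1, Wt 2, Ho 1 and Ho 2, against means of 33.2 in ventricular and 43.4 in atrial cells. Of 8 endothelial markers, led by Egfl7, 7 were detected, with Cldn5 at 0, and summed to 115, 127, 102 and 85.3 CPM, against 48.1 and 59.2 CPM. All 5 epithelial markers, led by Krt18, summed to 176, 171, 94.2 and 166 CPM, against 88.5 and 123 CPM. All 5 epicardial markers, led by Tcf21, summed to 45.0, 84.9, 20.3 and 64.2 CPM, against 8.07 and 23.1 CPM. The 7 sinus venosus markers, led by Isl1, summed to 253, 290, 240 and 288 CPM, against 46.7 and 188 CPM. Blood markers, led by Hbb-y, had a mean sum of 44.6 CPM, against 25.7 and 7.31 CPM. Their part in the levels of ungated cells was not tested.

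The genes whose levels were most like each member were sought over 24 sums, those of 6 classes in 4 libraries, among 8702 genes with at least 10 CPM in at least 4 sums. Pearson's r of log2(CPM + 1) is a description, since the sums share libraries and the contrast of muscle with other cells. For Pln these were Myh7 (0.995), Fam189a2 (0.983) and Akap6 (0.980), and for Sln they were Mcts2 (0.950), Calca (0.941) and Pvalb (0.930). Myh7, the slow myosin heavy chain of ventricular muscle, thus followed phospholamban most closely. Atp2a2 was nearest to Mybphl (0.992), Lpl (0.992) and Prkag2 (0.991), Casq1 to Itgb1bp2 (0.992), Pam (0.989) and Trim54 (0.989) and Casq2 to Kcnk3 (0.959), Art3 (0.950) and Emc9 (0.949). Ryr2 was nearest to Myl4 (0.996), Slc8a1 (0.996) and Csrp3 (0.995), and Slc8a1 to Myom1 (0.998), Mlip (0.997) and Csrp3 (0.996). Cacna1c had Dusp27 (0.993), Nexn (0.992) and Fxyd1 (0.991), Hrc had Ptges3l (0.997), Myocd (0.996) and Cap2 (0.995) and Smpx had Hspb7 (0.991), Actn2 (0.990) and Mybpc3 (0.987).

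A wider list of 72 other genes of calcium handling gives the surroundings of these 10. Of 60 tested between atrial and ventricular cells, 18 were higher and 13 lower in atrial cells, where 18.6% and 19.1% of all genes were called, with a median log2 fold change of 0.05 beside 0.00 over all genes. With library totals as the scale 23 were higher and 11 lower. In the release and store group, led in level by Fkbp1a at a mean of 899.9 CPM over the 3 chambers, 7 of 16 tested genes were higher and 2 lower. Ryr3, a second ryanodine receptor, was raised (1.07 ± 0.178, edgeR adjusted p-value 8.00e-06) and so was Itpr1, an inositol trisphosphate receptor (0.92 ± 0.0852, edgeR adjusted p-value 6.66e-11). Jph1, Jph2, Fkbp1a, Fkbp1b and Tmem38a were higher by 0.23 to 0.52, while Trdn, which anchors calsequestrin (-0.34 ± 0.0458), and Tmem38b (-0.34 ± 0.0662) were lower. Of the uptake group, led by S100a1 at 87.2 CPM, 3 were tested, with Atp2a1 higher and S100a1 lower (-0.13 ± 0.0510). With library totals 2 were higher and 0 lower, so that the call of S100a1 was lost.

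Among entry channels and their regulators, 4 of 13 tested genes were higher in atrial cells and 1 was lower. Of all genes, 18.6% were called higher and 19.1% lower in this comparison. Cacnb3 (0.86 ± 0.138) and Cacna2d2 (0.79 ± 0.0684), auxiliary subunits of voltage-gated channels, led, followed by Rrad (0.23 ± 0.0427), which restrains these channels and was the most abundant of the group at 267 CPM, and Cacna1d (0.20 ± 0.0791, edgeR adjusted p-value 0.0475). Cacna2d1, another auxiliary subunit, was lower (-1.29 ± 0.107, edgeR adjusted p-value 4.48e-12). Of 4 extrusion genes, Slc8a2 (-1.28 ± 0.337) and Atp2b4 (-0.82 ± 0.0844) were lower and Atp2b1, the most abundant at 129 CPM, was higher (0.13 ± 0.0479).

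Of 19 kinases and regulators, Calm2 was the most abundant at 474 CPM. Prkacb, Ppp1r1a, Adcy5 and Akap7 were higher in atrial cells and Pde4b, Pde4d, Calm3, Prkar2a and Akap6 lower. Akap6, an anchor of protein kinase A, was at 11.8, 11.6, 12.2 and 13.6 CPM in ventricular and 2.21, 5.04, 3.50 and 3.27 CPM in atrial cells of Wt 1, Wt 2, Ho 1 and Ho 2. The chambers did not overlap, and the log2 fold change was -1.77 ± 0.141 (edgeR adjusted p-value 1.51e-12). Of 5 genes of mitochondrial uptake, led by Smdt1 at 674 CPM, Mcu, the pore, was higher (0.89 ± 0.115), and its inhibitory partner Mcub (-0.84 ± 0.210) and Micu2 (-0.15 ± 0.0587) were lower.

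Between sinus venosus and atrial cells, 56 of the 72 genes were tested, 10 were higher and 21 lower, where 20.2% and 21.7% of all genes were called, with a median of -0.09 beside 0.00 over all genes. With library totals as the scale 20 were higher and 16 lower. In the release and store group 11 of 15 were lower and 0 were higher, which became 9 lower and 3 higher with library totals, the latter being Itpr1, Fkbp1b and Itpr2, the last named after its values had been seen. The 11 were Ryr3 (-1.30 ± 0.194), Srl, which encodes sarcalumenin (-1.09 ± 0.0829), Jph1 (-0.92 ± 0.170), Tmem38b, Jsrp1, Fkbp1a, Jph2, Trdn, Calr, Asph and Sri. Srl was at 39.3, 46.1, 35.3 and 35.5 CPM in sinus venosus and 60.1, 80.3, 71.9 and 87.0 CPM in atrial cells of Wt 1, Wt 2, Ho 1 and Ho 2. Of the uptake group S100a1 was lower (-0.21 ± 0.0579), a call that was lost with library totals.

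Among entry channels and their partners, 6 of 12 tested genes were higher in sinus venosus cells and 3 were lower, again beside 20.2% and 21.7% of all genes, and 7 and 2 with library totals. The 6 were Cacna1d, the channel known for pacemaker cells (1.29 ± 0.0842, edgeR adjusted p-value 2.06e-09), Orai3 (0.96 ± 0.186), Stim1 (0.77 ± 0.169), Cacnb3 (0.62 ± 0.123), Cacna2d1 (0.56 ± 0.133) and Cacna2d2 (0.48 ± 0.0598). Cacna1d was at 61.3, 64.6, 66.0 and 53.8 CPM in sinus venosus and 27.2, 19.0, 23.5 and 24.01 CPM in atrial cells of Wt 1, Wt 2, Ho 1 and Ho 2, without overlap. Cacnb2 (-0.96 ± 0.0945), Rrad (-0.30 ± 0.0623) and Cacna1h (-0.22 ± 0.0704) were lower. Atp2b1 was the 1 of 3 extrusion genes that was higher (0.56 ± 0.0504, edgeR adjusted p-value 1.05e-07). Of 18 kinases and regulators, Pde4b and Calm2 were higher and Camk2a (-0.74 ± 0.0870), Adcy5, Prkar2a, Ppp1r1a and Camk2d lower. With library totals 7 genes of this group were higher and 4 lower, and Camk2d was not called. Of 5 mitochondrial genes, Micu2 (0.24 ± 0.0620) was higher and Letm1 (-0.39 ± 0.0873) lower.

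**Figure D4:**
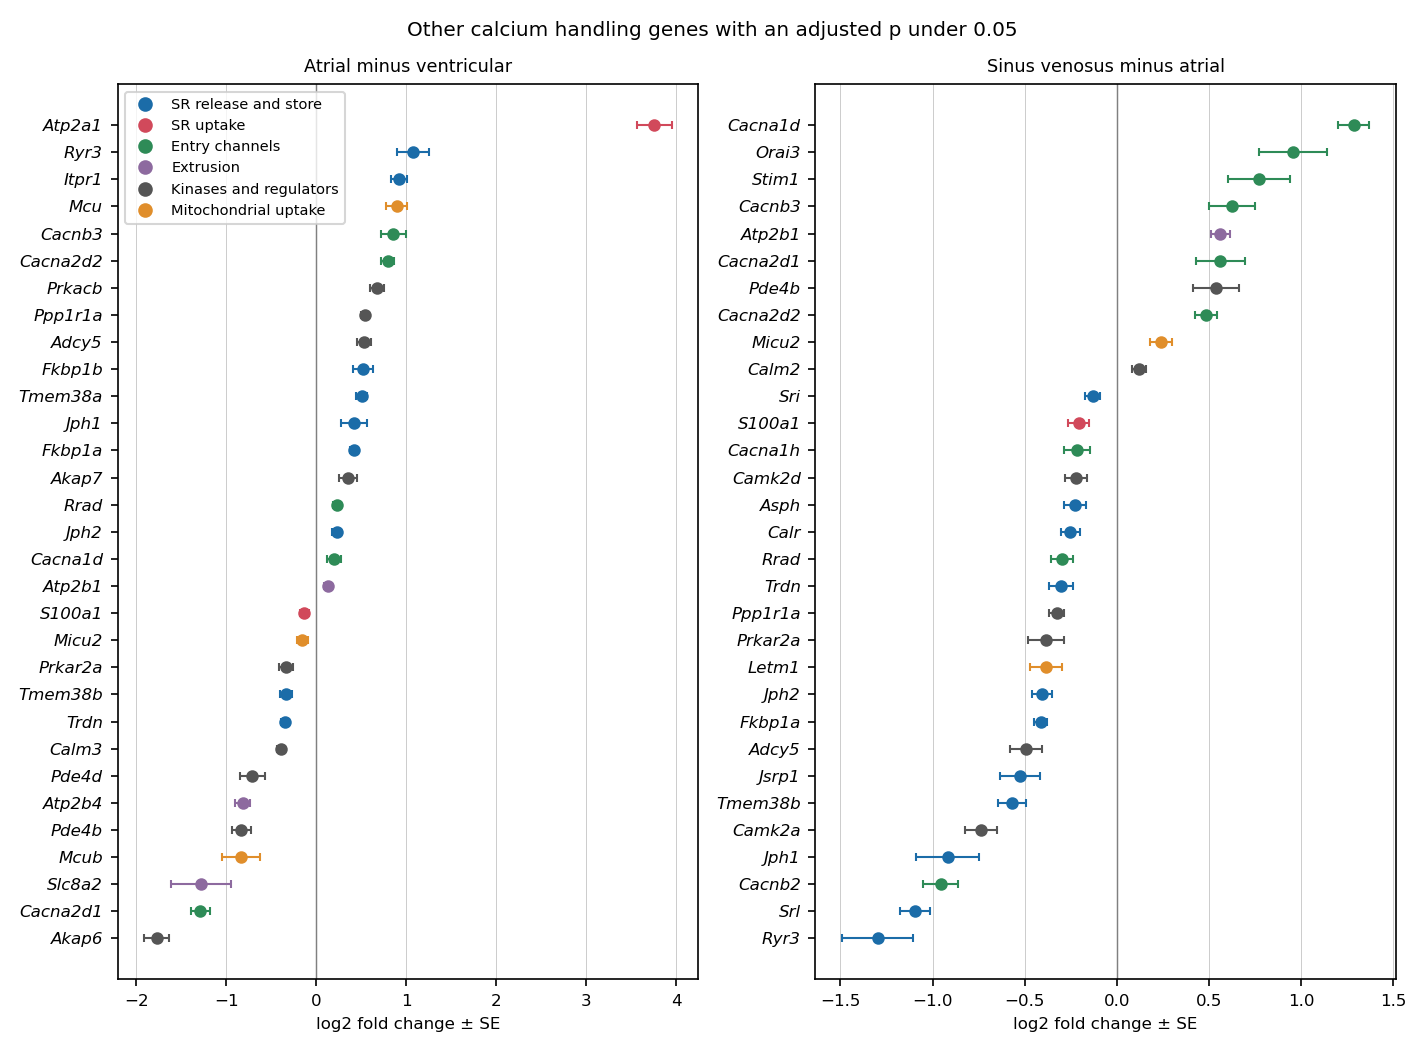
Fitted log2 fold change (point) and standard error (bar) of the other calcium handling genes with an edgeR adjusted p-value under 0.05, coloured by group, between atrial and ventricular cells (left, 31 genes) and between sinus venosus and atrial cells (right, 31 genes). Atp2a1 at 3.76 lies far to the right of the others in the left panel, and in the right panel all called release and store genes lie below 0 with TMM factors, but 3 others were called above 0 with library totals.

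The third comparison asked whether the Cyp51 mutation was accompanied by other levels of these genes. The transcript of Cyp51 checks no label, since the allele is a point mutation. It was at 37.3 and 46.0 CPM in Wt and 51.1 and 49.8 CPM in Ho ventricular cells (log2 fold change 0.22 ± 0.113, edgeR adjusted p-value 0.672). No member passed edgeR's test between Ho and Wt in ventricular, atrial or sinus venosus cells. The test called 10 of 12543 genes in ventricular cells (0.0797%), 15 of 11978 in atrial cells (0.125%) and 1 of 11798 in sinus venosus cells (0.00848%). At an unadjusted p-value under 0.05 there were 970, 560 and 659 genes, among them 3, 0 and 3 members. DESeq2 called 15, 7 and 2 genes, but in ventricular cells it gave no adjusted p-value to 7782 of the 12543 genes. In simulated sums, the test recovered 159, 157 and 155 of 200 genes given a simulated log2 change of 1 in these classes. At a change of 0.5 it recovered 56, 60 and 26 of 200. It also called unchanged genes, 7, 7 and 19 beside the former and 6, 4 and 9 beside the latter. In sinus venosus cells these made up more than 0.05 of the calls at both changes, and in the other classes at 0.5 alone. With 2 libraries against 2, the smallest two-sided p-value of an exact permutation of 1 value each is 0.333.

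Ho and Wt levels did not overlap for 6 of the 10 members in ventricular cells, 3 in atrial and 6 in sinus venosus cells, where 37.7%, 31.7% and 33.8% of all genes tested did not overlap. In ventricular cells Atp2a2, Ryr2, Slc8a1 and Cacna1c were at higher levels in both Ho libraries and Sln and Hrc at lower levels. Slc8a1 averaged 496 ± 12.4 CPM in Wt and 602 ± 28.8 CPM in Ho libraries (SD, n = 2), with a log2 fold change of 0.24 ± 0.105 (edgeR adjusted p-value 0.617). Cacna1c averaged 29.0 ± 1.46 CPM in Wt and 36.4 ± 5.18 CPM in Ho (0.27 ± 0.120, edgeR adjusted p-value 0.617). Atp2a2 averaged 478 ± 4.07 CPM in Wt and 565 ± 69.0 CPM in Ho (0.20 ± 0.110, edgeR adjusted p-value 0.685). Pln differed by less than the spread of the libraries, with 381 ± 44.6 CPM in Wt and 391 ± 12.5 CPM in Ho (-0.01 ± 0.107, edgeR adjusted p-value 0.996). In every genotype fit with 1 library left out, those of the interaction included, 1 genotype is a single library with no spread of its own, which is assumed to vary like the other libraries. Without Ho 1 the estimates were 0.25 ± 0.103 for Slc8a1, 0.38 ± 0.134 for Cacna1c, 0.28 ± 0.103 for Atp2a2, 0.16 ± 0.102 for Ryr2 and -0.22 ± 0.110 for Hrc, with edgeR adjusted p-values of 0.309 to 0.649.

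Sln had a large ventricular estimate on the 52 UMIs given above (-2.27 ± 0.664, edgeR adjusted p-value 0.397). It was called with no filter on low counts (-2.30 ± 0.511, edgeR adjusted p-value 0.00206). That setting called 126 of 19315 genes, against 10 of 12543 with the filter. Without Wt 2 the estimate was -3.21 ± 0.640. Without Wt 1, whose 22 UMIs lay in 4 cells, it was -1.32 ± 0.731. Without Ho 1 it was -3.58 ± 1.04.

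The list of other calcium genes held 1 call in ventricular cells, of 61 tested, with a median log2 fold change of 0.05 beside 0.00 over all genes. Cacna2d2, an auxiliary channel subunit, was at 34.5 and 27.7 CPM in Wt and 57.6 and 54.9 CPM in Ho ventricular cells, from 208, 446, 1254 and 682 UMIs, and the genotypes did not overlap. Its log2 fold change was 0.85 ± 0.125 (edgeR adjusted p-value 0.0260). Without Ho 1 it was 0.78 ± 0.135. The call was lost with doublets kept (0.83 ± 0.118, edgeR adjusted p-value 0.107), with a Myl2 limit of 20 per 10000 (0.75 ± 0.145, edgeR adjusted p-value 0.251) and in thinned cells (0.74 ± 0.153, edgeR adjusted p-value 0.107). Under the first 2 of these settings edgeR called 0 genes, with 902 and 907 at an unadjusted p-value under 0.05. In atrial cells Cacna2d2 was at 76.6 and 62.8 CPM in Wt and 83.2 and 90.1 CPM in Ho, and in sinus venosus cells at 121 and 113 CPM in Wt and 121 and 122 CPM in Ho. No gene of the list was called there, of 56 and 57 tested, with medians of 0.05 and -0.02.

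In atrial cells all member estimates lay between -0.32 (Casq2) and 0.14 (Slc8a1) on the log2 scale, with standard errors of 0.105 (Ryr2) to 0.348 (Casq2) and an edgeR adjusted p-value of 0.998 each. Hrc was again at a lower level in both Ho libraries, with 64.3 ± 2.14 CPM in Wt and 55.1 ± 5.25 CPM in Ho (-0.20 ± 0.108), and so was Casq2, while Slc8a1 was at a higher level in both. Without Ho 1 the estimates were -0.15 ± 0.120 for Hrc, -0.38 ± 0.486 for Casq2 and 0.16 ± 0.104 for Slc8a1, with edgeR adjusted p-values of 0.638 to 0.870. Sln, at 5.94 ± 1.28 CPM in Wt and 5.69 ± 2.16 CPM in Ho, and Pln, at 30.4 ± 5.49 CPM in Wt and 28.7 ± 4.91 CPM in Ho, differed by less than their spread. The 4 macrophage markers, all detected and led by Tyrobp, summed to 7.84 and 3.71 CPM in Wt and 0 and 0.113 CPM in Ho atrial cells. Mesenchymal markers summed to 50.1 and 47.3 CPM in Wt and 37.3 and 38.8 CPM in Ho. For endothelial markers the sums were 65.0 and 59.5 CPM in Wt and 55.3 and 56.8 CPM in Ho. Blood markers were higher in both Ho libraries, at 2.41 and 5.13 CPM in Wt and 16.4 and 5.30 CPM in Ho. Their part in the member estimates was not tested.

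In sinus venosus cells Sln was at lower levels in both Ho libraries, at 45.1 ± 10.3 CPM in Wt and 26.5 ± 6.96 CPM in Ho (SD, n = 2), with a log2 fold change of -0.77 ± 0.202 (edgeR adjusted p-value 0.590). Hrc averaged 91.8 ± 0.422 CPM in Wt and 71.2 ± 2.69 CPM in Ho (-0.37 ± 0.104, edgeR adjusted p-value 0.636), and Casq1 87.4 ± 10.47 CPM in Wt and 65.7 ± 7.53 CPM in Ho (-0.41 ± 0.124, edgeR adjusted p-value 0.688). Ryr2 was also at a lower level in both, with 188 ± 6.25 CPM in Wt and 171 ± 8.84 CPM in Ho (-0.13 ± 0.0909, edgeR adjusted p-value 0.932). Cacna1c and Casq2 were at higher levels in both Ho libraries. Cacna1c averaged 20.6 ± 1.81 CPM in Wt and 24.5 ± 1.94 CPM in Ho (0.24 ± 0.142, edgeR adjusted p-value 0.916), and Casq2, on 74 UMIs, 2.00 ± 0.548 CPM in Wt and 3.15 ± 0.872 CPM in Ho (0.65 ± 0.410, edgeR adjusted p-value 0.928). With the filter on low counts, none of these 6 passed the test over 4 libraries. Without Ho 1 the estimates were -0.43 ± 0.107 for Hrc, -0.11 ± 0.0989 for Ryr2, 0.13 ± 0.155 for Cacna1c and 0.33 ± 0.49998 for Casq2. They were -1.08 ± 0.182 for Sln and -0.56 ± 0.118 for Casq1. With no filter on low counts Sln was called (-0.76 ± 0.145, edgeR adjusted p-value 9.37e-05). That setting called 101 of 18457 genes, against 1 of 11798 with the filter. It was not called without Wt 1 (-0.50 ± 0.190, edgeR adjusted p-value 0.758) or without Ho 2 (-0.48 ± 0.176, edgeR adjusted p-value 0.721). After thinning, 12.0% and 11.5% of Wt and 7.56% and 6.24% of Ho sinus venosus cells had a UMI of Sln. The exact 95% binomial intervals were 8.60% to 16.2%, 8.25% to 15.5%, 5.32% to 10.4% and 4.38% to 8.57% in the same order.

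The share of Shox2 cells with a UMI of Stard10, one of the gate genes, was 65.3% and 66.4% in Wt and 61.8% and 62.4% in Ho, and this difference was not tested. In Shox2 cells with Stard10 alone, the Ho estimate was -0.61 ± 0.186 for Sln and -0.30 ± 0.136 for Casq1. In those without it the estimates were -1.39 ± 0.567 and -0.64 ± 0.277. Without Stard10, however, Sln levels overlapped between genotypes, at 39.7 and 6.51 CPM in Wt and 10.3 and 6.55 CPM in Ho. Mesenchymal markers, given by library above, summed to higher values in both Ho libraries. Atrial markers summed to lower values, at 36780 and 37099 CPM in Wt and 34789 and 33602 CPM in Ho sinus venosus cells. So did ventricular markers, at 2574 and 2674 CPM in Wt and 2547 and 2070 CPM in Ho. The part of these values in the estimates was not tested.

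**Figure D5:**
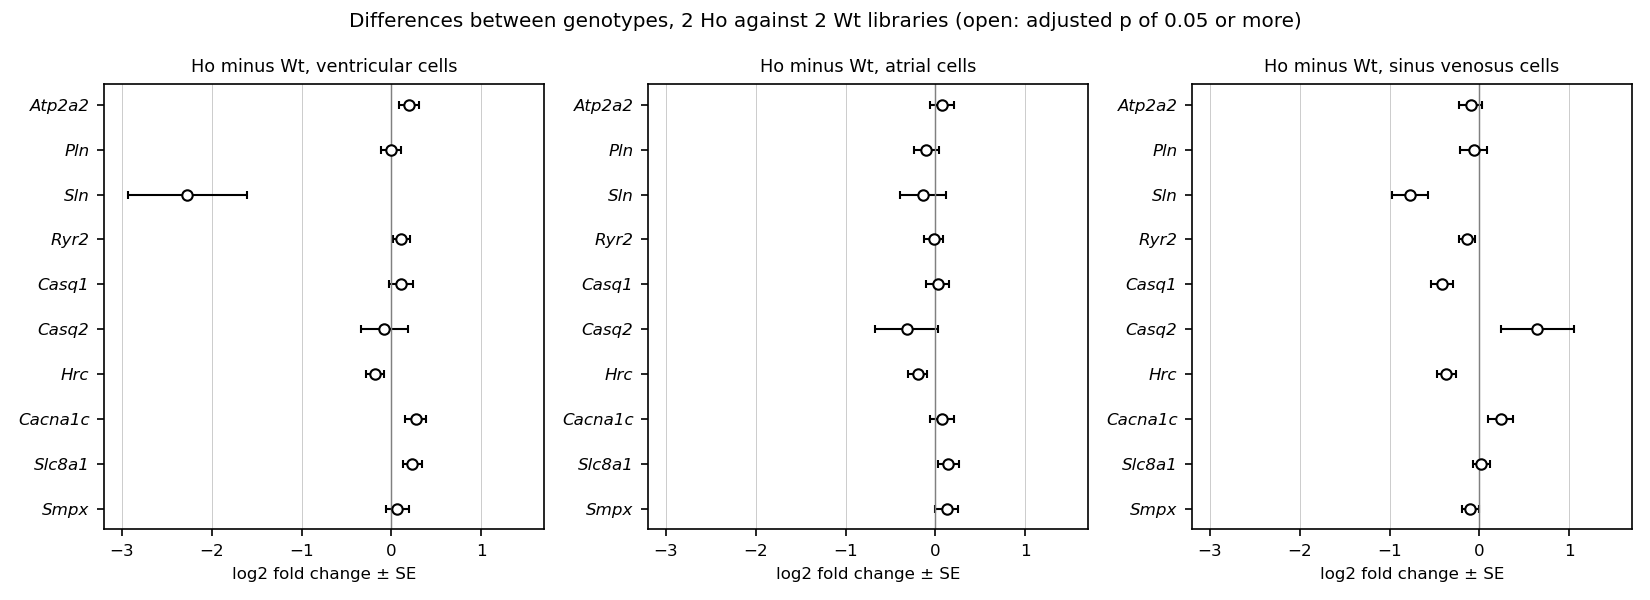
Fitted log2 fold change (point) and standard error (bar) of the 10 genes between 2 Ho and 2 Wt libraries in ventricular, atrial and sinus venosus cells; all points are open, since no edgeR adjusted p-value was under 0.05. Sln lies at -2.27 in ventricular cells on 52 UMIs and at -0.77 in sinus venosus cells on 907 UMIs.

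Whether the genotype effect differed between atrial and ventricular cells was tested as an interaction within libraries. edgeR called 5 of 12731 genes (0.0393%), with 772 at an unadjusted p-value under 0.05 and 1 called by DESeq2, and 0 members. Of the members, 9 had estimates between -0.21 (Casq2) and 0.07 (Smpx). The estimate of Sln was 1.94 ± 0.625 (edgeR adjusted p-value 0.619), again on the ventricular UMIs given above. It was 3.62 ± 0.816 without Ho 1 and 3.26 ± 0.660 without Wt 2, and whether it passed the test depended on the library left out. Sln was called with no filter on low counts (1.91 ± 0.464, edgeR adjusted p-value 0.0398), where 28 of 20246 genes were called. The replicate block given below also called it. Of 63 other calcium genes tested, 0 were called and 8 had an unadjusted p-value under 0.05.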

How the data were processed

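The 4 deposited count matrices, 1 per library, hold UMI counts per gene and cell barcode. Per the labels and the study's methods, the authors made these counts from 10x Genomics 3′ v3.1 libraries with Cell Ranger 6.1.1 on mm10 (GRCm38) and worked on with Seurat 4.1.0. The study's methods name DoubletFinder for the removal of doublets, and Scrublet was used here instead. No deposited cell annotation was used.

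Cells with 500 to 50000 UMIs, 500 to 6000 genes and at most 20% mitochondrial counts were kept, and Scrublet (scanpy 1.11.5, expected doublets of 0.8% per 1000 cells) removed 334 to 746 cells per library, which left 6126 to 8908 cells. Cells were gated as described, and the limits of 10 per 10000 were chosen here. Per library, 43 to 124 cells lay just above the Tnnt2 limit (10 to 12 per 10000) and 61 to 109 just below it (8 to 10). Counts were summed per library and class, which gave 4602568 to 21766065 UMIs per chamber sum, and filtered by expression in edgeR 4.0.16 (R 4.3.3). Chambers were compared with TMM factors, glmQLFit and glmQLFTest with library as a block, genotypes without a block, and p-values were adjusted by Benjamini-Hochberg over all genes tested at a threshold of 0.05. The interaction was fitted over both chambers of all libraries. The same steps were tested on simulated data.

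For shares of cells with a UMI, gated cells were thinned to 5000 UMIs and shallower cells left out, while fits in thinned cells used gates applied after thinning. Intervals cover counting error only. Gene positions come from GENCODE M21 on GRCm38, which held 99.6% of the gene IDs. The list of other calcium handling genes held 72 genes, after 1 that was not found and 2 that are not reported here had been left out. All 10 members, every called gene of that list, the most abundant gene of each of its 6 groups, the 3 genes most like each member, Cyp51, and sex genes as a check were named by rule. The members, gates and lists were chosen with earlier results of these data known. Alternatives were RLE factors, library totals, DESeq2 1.42.0, other filters and gate limits, doublets kept, thinned cells, no library block or a replicate block, and each library left out.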

Additional observations from a re-analysis of the deposited data

Results flagged for a closer look

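For each of the 10 genes and both chamber comparisons, the log2 ratio of the 2 classes within a library was examined for a single library far from the other 3 by Dixon's test at the 95% level, 20 groups of 4 values in all. Chance flags about 1 in 20 such groups, and 3 stood out. The log2 ratio of Casq1 in sinus venosus to atrial cells was -1.50 in Ho 2, against -0.77 in Wt 1, -0.66 in Wt 2 and -0.74 in Ho 1, so that Ho 2 lay furthest out. That of Smpx was -0.99 in Wt 1, against -1.44 in Wt 2, -1.46 in Ho 1 and -1.40 in Ho 2. The log2 ratio of Casq2 in atrial to ventricular cells was 0.0872 in Wt 1, where it had 16 ventricular UMIs, against -0.86 in Wt 2, -0.83 in Ho 1 and -0.90 in Ho 2. Without Wt 1 the fitted log2 fold change of Casq2 was -0.90 ± 0.205 (edgeR adjusted p-value 0.000741). Without Ho 2 that of Casq1 in sinus venosus cells was -0.85 ± 0.0532 and without Wt 1 that of Smpx -1.56 ± 0.0431.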

How the results depend on the processing

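Between chambers, 175 of 178 alternative values of the 10 genes in atrial against ventricular cells, and 189 of 197 in sinus venosus against atrial cells, kept their direction and their side of the threshold. For the other calcium genes called these were 499 of 552 and 560 of 618. In the second comparison Casq2 turned to -0.043 with a Myl2 limit of 5 per 10000 and ran from -0.22 to 0.31 with 1 library left out. DESeq2 called 2726 and 2730 genes instead of 4593 and 4983, and cells thinned to 5000 UMIs, with fewer genes tested, 2343 and 2617.

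The counts of genes called between genotypes were unstable. In ventricular cells the 10 calls became 24 with library totals, 126 with no filter on low counts, 0 with doublets kept, 6 with a Tnnt2 limit of 5, 0 with a Myl2 limit of 20 and 57 to 101 with 1 library left out. In atrial cells the 15 calls became 26 with library totals, 7 with DESeq2, 68 with no filter, 30 with a Tnnt2 limit of 5, 0 in thinned cells and 32 to 141 with 1 library left out. In sinus venosus cells the 1 call became 101 with no filter, 22 to 77 with 1 library left out, 3 in Shox2 cells without Stard10 and 0 in those with it. It became 2 with each of DESeq2, a minimum of 10 counts, a Myl2 limit of 5 and thinned cells, and 0 with each of library totals, doublets kept and Tnnt2 limits of 5 and 20. The 5 genes called for the interaction became 9 with RLE factors and with library totals, 1 with DESeq2, a Tnnt2 limit of 20 and a Myl2 limit of 5, 28 with no filter, 8 with a minimum of 10 counts, 3 with doublets kept, a Tnnt2 limit of 5 and thinned cells, 2 with a mitochondrial limit of 10%, 0 with a Myl2 limit of 20, 11 with 2 UMIs of Stard10 and 11 to 28 with 1 library left out. The cause was not tested.

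Several small genotype estimates of members changed sign. In ventricular cells Pln turned to 0.035 with library totals, 0.0020 with a minimum of 10 counts, 0.030 with doublets kept, 0.051 with a Tnnt2 limit of 20, 0.025 with 2 UMIs of Stard10 and 0.040 in thinned cells, Casq1 to -0.011 in thinned cells and Casq2 to 0.034 with a Myl2 limit of 20. In atrial cells Sln turned to 0.12 and Ryr2 to 0.0070 with doublets kept, and Ryr2 to 0.013 with a Tnnt2 limit of 5. In sinus venosus cells Pln turned to 0.031 with a Myl2 limit of 20 and 0.17 in thinned cells, and Slc8a1 to -0.055 in the latter. In Shox2 cells without Stard10 they were 0.14 for Ryr2, -0.15 for Slc8a1 and 0.67 for Smpx. For the interaction Casq1 turned to 0.13 and Hrc to 0.041 in thinned cells, Casq2 to 0.018 with doublets kept and 0.12 with 2 UMIs of Stard10, and Smpx to -0.0020 with library totals.

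With 1 library left out, ventricular estimates ran from -0.10 to 0.11 (Pln), -0.13 to 0.33 (Casq1), -0.29 to 0.43 (Casq2) and -0.12 to 0.28 (Smpx). Atrial estimates ran from -0.053 to 0.18 (Atp2a2), -0.24 to 0.11 (Pln), -0.50 to 0.19 (Sln), -0.058 to 0.022 (Ryr2), -0.21 to 0.22 (Casq1), -0.052 to 0.18 (Cacna1c) and -0.017 to 0.29 (Smpx). Those in sinus venosus cells ran from -0.27 to 0.057 (Atp2a2), -0.22 to 0.094 (Pln) and -0.015 to 0.061 (Slc8a1), and those of the interaction from -0.21 to 0.033 (Pln), -0.89 to 0.063 (Casq2), -0.00015 to 0.11 (Smpx) and -0.10 to 0.058 (Hrc).

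Wt and Ho libraries share replicate numbers. Same-numbered libraries did not deviate together from their group means (r = -0.0126, 0.00835 and -0.0346 across genes in ventricular, atrial and sinus venosus cells). This does not show whether the numbers pair the libraries, since differences in sex, blood markers and depth within a genotype could hide a shared deviation. With the number as a replicate block, 123, 43 and 4 genes were called in these cells and 24 for the interaction. Under that replicate block Sln alone of the members was called, in ventricular cells (-2.71 ± 0.543, edgeR adjusted p-value 0.000316) and in the interaction (2.56 ± 0.542, edgeR adjusted p-value 0.00241). In ventricular cells the estimates of Sln rested on 52 UMIs and those of Casq2 on 214.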

Other observations

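Cyp51 itself varied between chambers, like several calcium genes. It averaged 46.0 ± 6.24 CPM (SD, n = 4 libraries) in ventricular, 76.9 ± 8.55 CPM in atrial and 94.1 ± 3.90 CPM in sinus venosus cells. The log2 fold change was 0.67 ± 0.0588 between atrial and ventricular cells (edgeR adjusted p-value 2.04e-11) and 0.16 ± 0.0576 between sinus venosus and atrial cells (edgeR adjusted p-value 0.0325). Ungated muscle cells had the highest mean of the muscle classes, 106 ± 17.2 CPM.

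In ungated muscle cells Ryr3 made up 5.82% ± 1.84 (SD, n = 4 libraries) of the UMIs of Ryr3 and Ryr2, against 1.85% ± 0.530 in ventricular, 2.70% ± 0.390 in atrial and 1.38% ± 0.433 in sinus venosus cells, and every ungated value was above every value of these classes. These cells were the shallowest of the muscle classes, with library medians of 7104 to 10309 UMIs, and the markers of other cell types that they held are given above. No test was made on them, and the part of either in this share was not tested.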
